A study of Rattus norvegicus with 60 samples.

Results

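The hypothalamus-only regions are stretches of the rat genome in which methylated DNA formed a peak in the hypothalamus but not in the white blood cells (WBC) of females on postnatal day 22 (P22). They were found by merging the peaks of 60 samples wherever peaks overlapped by at least 1 bp on chromosomes 1 to 20 of the Rn6 genome. A merged region was kept when each of the 12 P22 hypothalami had a peak in it and none of 11 P22 WBC samples did. This gave 1387 of 609781 regions (0.227%), or 3.73% of the 37233 regions with a peak in all 12 P22 hypothalami. Their presence at P22 and their contrast with WBC are therefore the terms of the choice, and are given as description only. Through the merging, the 36 hypothalami of P1, P8, and P15 helped to set the bounds of the regions. The choice among merged regions did not use these 36 or the labels of the 3 prenatal groups. However, the demand for a peak in all 12 P22 hypothalami bounds the P22 height in every group.

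DNA methylation was profiled by methylated DNA immunoprecipitation and sequencing (meDIP-seq) in female Sprague-Dawley offspring of 3 prenatal groups, to follow the effect of prenatal alcohol exposure on the developing hypothalamus and on blood. PAE dams had a liquid ethanol diet ad libitum through gestation, PF dams were pair-fed a liquid control diet in the amount a PAE partner ate, and C dams had a pelleted form of the control diet ad libitum. There were 4 samples per group, age, and tissue, each a whole dissected hypothalamus or, at P22, the mononuclear cells isolated from the blood of the same animals. P1, P8, and P15 hypothalami were immunoprecipitated in a different round from all P22 samples, DNA extraction rounds were not shared between ages, and the breeding cohorts of P1 were not those of P8 and P15. The study states a maximum of 1 female per litter. However, 7 of the 39 animal numbers of the hypothalami, read here as litter numbers, recur at more than 1 age within a cohort and group. Samples of different ages may therefore share a litter.

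MeDIP-seq captures DNA fragments with an antibody against 5-methylcytosine, a base that in mammals lies mostly at CpG sites and whose pattern differs between cell types. A peak is a stretch where captured fragments pile up above their surroundings, so that it reflects both the share of methylated molecules and the local density of CpG sites. The hypothalamus, which governs stress responses, feeding, and reproduction, still gains glia and matures its neuronal connections after birth. In a whole hypothalamus, a change in the mix of cells and a change of methylation within cells cannot be told apart.

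After the authors' filtering, P1 hypothalami held 12521572 to 17029204 fragments (median = 13757600), P8 hypothalami 14697682 to 18648425 (median = 17620381), P15 hypothalami 14545396 to 22156238 (median = 19909237.5), and P22 hypothalami 16498609 to 18030851 (median = 17150602.5). The number of peaks averaged 198709.6 ± 16329 per P1 hypothalamus (SD, n = 12), 201183 ± 15156 per P8 hypothalamus, and 175889 ± 23606 and 158049.5 ± 10303 at the later ages, so that these 4 means did not follow the fragments. Within an age the extremes could go together, as on P15, where PF 12 had the fewest of both, 14545396 fragments and 138637 peaks, and PAE 12 the most, 22156238 and 214435. Peak height, the number of fragments over the highest summit of a sample in a region, was scaled between samples on the 21987 regions with a peak in all 48 hypothalami. A sample without a peak has no height in the lists and was set to a floor of 6.74 scaled fragments. Its own height may lie above that floor, so that the size of a difference from such a sample depends on the floor.

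One WBC sample, PF 15, stood apart from the other 11 and was not used to choose the regions. The study set it aside as a possible mix-up of labels, and whether it holds blood cells, hypothalamus, or both was not tested. It had a peak in 1084 of the 1387 hypothalamus-only regions (78.2%), in 99.3% of the 26538 regions shared by the 12 P22 hypothalami and the 11 WBC samples, and in 16.2% of the 3119 regions with a peak in the 11 WBC samples and no P22 hypothalamus. With PF 15 counted as a WBC sample, 303 regions were left.

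The hypothalamus-only regions were mostly short of a peak at birth and mostly held one from the second postnatal week on. A P1 hypothalamus had a peak in 31.1 to 50.6% of the 1387 regions (median = 40.0%), a P8 hypothalamus in 60.9 to 87.2% (median = 77.0%), and a P15 hypothalamus in 72.5 to 92.3% (median = 84.1%). The mean share was 39.6 ± 5.54% for P1, 74.6 ± 8.32% for P8, and 82.3 ± 6.80% for P15 (SD, n = 12). Every P8 and P15 hypothalamus thus held more of the regions than any P1 hypothalamus, while the ranges of P8 and P15 overlapped. A share under 100% before P22 follows from the choice of regions. The part of that choice in the order of the 3 earlier ages was not tested. P1 hypothalami also had the fewest fragments on average and P15 hypothalami the most, and among the P15 samples the 3 with the fewest fragments, 14545396, 16818584, and 16867103, held 73.2, 74.1, and 72.5% of the regions. The part of sequencing depth in these shares was not tested.

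Sets chosen on other terms had other courses. Regions shared by hypothalamus and WBC at P22 had a peak in 98.7 ± 0.547% of cases on P1, 99.2 ± 0.651% on P8, and 97.6 ± 1.74% on P15 (SD, n = 12). Regions with a peak in the 11 WBC samples only went the other way, with 25.9 ± 3.17% on P1, 19.6 ± 2.72% on P8, and 10.2 ± 3.49% on P15. These shares are a description, since the sets were chosen on P22 samples and differ in peak height.

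Within each age, the samples of the separate extraction rounds lay near each other. The mean share of the hypothalamus-only regions with a peak was 38.0 ± 4.27% in round 5 and 41.3 ± 6.55% in round 6, both of P1 (SD, n = 6). On P8 it was 72.8 ± 10.9% in round 3 and 76.4 ± 5.02% in round 4, and on P15 79.7 ± 6.72% in round 1 and 84.9 ± 6.32% in round 2. By breeding cohort, P1 gave 39.4 ± 4.63% in Dev-3 and 39.8 ± 6.79% in NYB, and P8 gave 74.8 ± 9.33% in Dev-4 and 74.5 ± 8.08% in Dev-5, Dev-4 being the sole cohort of P15. Rounds and cohorts of the same age thus differed by less than their spread, but age and round cannot be told apart between ages. When the same number of peaks, 138637, was taken from every sample, 2026 regions met the rule and held a peak in 35.5% of P1, 65.4% of P8, and 79.4% of P15 hypothalami on average.

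The 3 prenatal groups followed the same order of ages. On P1, the share of the regions with a peak was 39.3, 33.5, 43.4, and 35.3% in the 4 C hypothalami, 35.6, 46.7, 50.6, and 31.1% in PF, and 40.7, 40.9, 40.7, and 37.8% in PAE. On P8, it was 60.9, 69.0, 65.3, and 82.2% in C, 78.4, 72.3, 81.5, and 77.9% in PF, and 87.2, 80.7, 63.6, and 76.2% in PAE. On P15, it was 75.1, 87.2, 84.7, and 83.3% in C, 85.9, 89.2, 83.4, and 73.2% in PF, and 86.5, 74.1, 72.5, and 92.3% in PAE. At each age the values of the groups overlapped, and the lower mean of C on P8, 69.4 ± 9.17% against 77.5 ± 3.84% in PF and 76.9 ± 9.99% in PAE (SD, n = 4), came with fewer fragments and fewer peaks in those samples, 16229820 ± 1278396 fragments against 17473927 ± 1247741 and 17963675.5 ± 541388. The part of depth in this difference was not tested.

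Taken region by region, no hypothalamus-only region was without a peak before P22. The number of the 36 earlier hypothalami with a peak ran from 4 to 36, with a median of 23 and quartiles of 18 and 29. A peak was present in all 36 in 57 regions (4.11%), compared with 19743 of the 26538 shared regions (74.4%), and in fewer than 18 of the 36 in 315 regions. On P1, 237 regions had no peak in any of the 12 hypothalami and 102 had a peak in all 12. By P8, 5 regions had no peak in any sample and 302 had a peak in all 12, and by P15 the counts were 0 and 367. From P1 to P8 the number of samples with a peak was larger in 1205 regions, smaller in 35, and equal in 147. From P8 to P15 it was larger in 672, smaller in 370, and equal in 345.

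With a region counted as held at an age when at least 9 of its 12 hypothalami had a peak and as lacking when at most 3 had one, the regions fell into several courses, of which the commonest are given. At P1, 306 regions (22.1%) were held and 651 (46.9%) lacking. At P8, 880 (63.4%) were held and 77 (5.55%) lacking, and at P15, 1050 (75.7%) were held and 6 (0.433%) lacking. The commonest course, in 295 regions (21.3%), was a peak in an intermediate number of P1 samples and held on P8 and P15. A further 284 regions (20.5%) were held at all 3 ages, 195 (14.1%) were lacking on P1 and held from P8, 187 (13.5%) were lacking on P1, intermediate on P8, and held on P15, and 146 (10.5%) were lacking on P1 and intermediate on P8 and P15. The number of samples with a peak did not fall from P1 to P8 or from P8 to P15 in 988 of the 1387 regions.

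The 57 regions present throughout had a median of their mean heights of 20.9 scaled fragments on P1, 22.6 on P8, 23.7 on P15, and 26.3 on P22, and 42 of them had a higher mean on P22 than on P1. Since the choice bounds the P22 height, the P22 median and this count are description only. Between P1 and P15, 15 of the 57 (26.3%) rose in the limma test and 0 fell, against 4.06% and 2.29% of all 29056 regions with a peak in these 36. Among the 57 with a peak in all 36 earlier hypothalami, chr5:167236859-167237729 (871 bp) had the highest mean height over the 36, at 25.4 to 40.4 scaled fragments on P1 (median = 33.5), 26.9 to 45.5 on P8 (median = 40.0), 22.9 to 47.9 on P15 (median = 38.0), and 27.7 to 54.5 on P22 (median = 34.4). It was followed by chr9:45328833-45329720, with medians of 33.5, 34.4, 36.4, and 40.1 scaled fragments on P1, P8, P15, and P22, and by chr14:91788211-91789335, with 33.8, 34.6, 35.8, and 31.7. Next came chr1:102486419-102487082, with medians of 31.6, 34.8, 32.6, and 35.8, and chr3:171206733-171207456, with 30.6, 31.9, 33.5, and 34.8. In each of these 5 regions the ranges of the 4 ages overlapped, and the fitted log2 differences between P15 and P1, 0.04 to 0.15, missed the threshold. All 5 had a peak in PF 15 WBC.

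At the other end were regions that appeared late. The fewest earlier peaks were in chr20:2536382-2536978, with a peak in 0 of 12 P1, 1 of 12 P8, and 3 of 12 P15 hypothalami, and a height of 13.5 to 26.5 scaled fragments on P22 (median = 17.9). The next were chr20:8515706-8516334, with 0, 1, and 4 samples and a P22 median of 22.4, and chr13:78550498-78551368, with 0, 0, and 5 samples and a P22 median of 12.9. The region chr8:126947694-126948269 had a peak in no P1 or P8 sample and in 6 of 12 on P15, when the highest sample reached 51.6 scaled fragments, and stood at 52.3 to 67.5 (median = 57.7) on P22. The last of these 5, chr7:100047614-100048513, had a peak in 0, 3, and 3 samples and a P22 median of 20.4. PF 15 WBC had a peak in chr13:78550498-78551368 and in none of the other 4.

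With samples without a peak at the floor, height rose with age in many of the regions and fell in none that passed the test. All 1387 had a peak in at least 3 of the 36 earlier hypothalami and entered the fit, in which log2 height was compared between ages with limma over 376706 regions, with prenatal group as a covariate. From P1 to P8, 182 hypothalamus-only regions (13.1%) rose at a false discovery rate (FDR) under 0.05 and 0 fell, where 0.247% of all regions tested rose and 0.0879% fell. In either direction the share of all regions was 0.335%. At an unadjusted p under 0.05 there were 757 hypothalamus-only regions (54.6%) and 10.3% of all. From P8 to P15, 140 regions (10.1%) rose and 0 fell, against 0.302% and 0.140% of all regions (0.441% in either direction), with 534 (38.5%) at an unadjusted p under 0.05 against 12.3% of all. Over the whole interval from P1 to P15, 872 regions (62.9%) rose and 0 fell, against 3.25% and 2.12% of all regions (5.37% in either direction), with 1143 (82.4%) at an unadjusted p under 0.05 against 22.2% of all.

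The median log2 difference of the hypothalamus-only regions was 0.45 from P1 to P8 (quartiles 0.25 and 0.69), 0.29 from P8 to P15 (quartiles 0.08 and 0.50), and 0.78 from P1 to P15 (quartiles 0.51 and 1.06). Over all regions tested these medians were 0.00, -0.01, and -0.01. The sizes depended on the processing. With 0.5 of the floor the hypothalamus-only medians were 0.80, 0.34, and 1.25, with equal numbers of peaks from every sample 0.25, 0.24, and 0.52, and with fold enrichment in place of height 0.46, 0.15, and 0.68. In the shared regions, 918 rose and 610 fell from P1 to P15 among 26538, with a median of -0.03, and in the regions of the 11 WBC samples, 2 rose and 203 fell among the 1767 that could be tested, with a median of -0.17. Of the hypothalamus-only regions called in a single step, 164 rose from P1 to P8 alone, 122 from P8 to P15 alone, and 18 in both steps, while 572 rose from P1 to P15 without a call in either step. Since the 3 comparisons share their samples, these counts are not independent of each other. No such split is given for all regions, so the overlap of the steps cannot be read as particular to the hypothalamus-only regions.

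A call between P1 and P15 can come from a peak set against the floor or from the height of peaks. The calls include 211 of the 237 regions with no P1 peak (89.0%), which have no P1 height, against 8.81% of all 33528 such regions. Regions of this kind entered the fit through later samples only and could rise but not fall. The direction of their calls was thus set beforehand. Of the 67 with a peak in all 12 P1 and all 12 P15 samples, where the floor plays no part, 16 (23.9%) rose and 0 fell, with a median log2 difference of 0.24, against 3.94% and 2.15% of all 31265 such regions, with a median of -0.01. With samples without a peak treated as missing, 131 of 1150 regions (11.4%) rose from P1 to P8, 166 of 1382 (12.0%) from P8 to P15, and 595 of 1150 (51.7%) from P1 to P15, and 0 fell. Of all regions, 0.659, 1.36, and 7.46% rose in this fit and 0.285, 0.0741, and 0.961% fell. The hypothalamus-only regions had median log2 differences of 0.30, 0.29, and 0.58 against 0.00, 0.15, and 0.15 over all regions. Counting samples with a peak only, the median height of the hypothalamus-only regions was 14.1 ± 0.785 scaled fragments for P1 (SD over samples, n = 12), 15.6 ± 0.771 for P8, 19.0 ± 1.05 for P15, and 21.9 ± 1.44 for P22. The shared regions stayed at 25.9 ± 0.323, 25.9 ± 0.240, 26.0 ± 0.302, and 25.9 ± 0.303, which the scaling on regions held by every hypothalamus favours. The authors' fold enrichment over the local background, in contrast, had a median of 4.40 ± 0.0801, 4.45 ± 0.235, 4.09 ± 0.108, and 4.63 ± 0.294 in the hypothalamus-only regions with a peak. In the shared regions it was 6.37 ± 0.188, 6.27 ± 0.425, 5.31 ± 0.241, and 5.56 ± 0.306, and both sets had their lowest value on P15.

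The breeding cohort as a term lowered the counts more than the size of the differences. In a fit of all 48 hypothalami, chosen after seeing the data, 278, 150, and 926 regions (20.0, 10.8, and 66.8%) rose from P1 to P8, from P8 to P15, and from P1 to P15, against 0.335, 0.194, and 2.63% of all regions. With breeding cohort as a term in that fit, 5, 76, and 132 (0.360, 5.48, and 9.52%) rose, against 0.00765, 0.0602, and 0.155% of all, while the median log2 differences were 0.47, 0.28, and 0.78. In the fit with cohort, only the P22 hypothalami, on which the regions were chosen, tie the cohorts of P1 to those of P8 and P15. The adjusted differences from P1 therefore draw on the samples of the choice. The extraction round is nested in age and could not be a term. With scaling by the number of fragments, under which the median of all regions moved by -0.06, -0.15, and -0.22, the median differences of the hypothalamus-only regions were 0.44, -0.04, and 0.48, so that the step from P8 to P15 turned sign. Under this scaling 269, 96, and 650 (19.4, 6.92, and 46.9%) rose and 1, 56, and 68 (0.0721, 4.04, and 4.90%) fell, against 0.391, 0.333, and 1.84% of all regions rising and 1.27, 10.1, and 25.1% falling. With the litter number as a random block, also chosen after seeing the data, 185, 176, and 859 regions (13.3, 12.7, and 61.9%) rose and 0 fell, against 0.243, 0.460, and 3.16% of all rising and 0.0889, 0.249, and 2.11% falling.

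Among the 5 regions that ranked first in the fitted difference between P1 and P15, the foremost was chr2:161576073-161576524 (452 bp), which also had the highest mean height on P22. It had no peak on P1 and a peak in 2 of 12 P8 hypothalami, the higher of which reached 56.7 scaled fragments, and then stood at 65.0 to 132 on P15 (median = 100.7) and 86.3 to 140 on P22 (median = 109). All 12 P15 samples were thus above the 2 P8 samples with a peak, and the other younger samples have no height to compare. No difference from P1 is given, since no P1 sample had a peak. The rank rests on the floor, and with fold enrichment in place of height this region came after 3 of the other 4.

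Another region of chromosome 2, chr2:156761538-156763057 (1520 bp), rose in both steps. Only 2 of 12 P1 samples had a peak, the higher at 18.1 scaled fragments, and the height was 32.8 to 52.1 on P8 (median = 41.2), 58.4 to 101.5 on P15 (median = 83.8), and 76.4 to 126.5 on P22 (median = 99.5). The ranges of P8 and P15 did not overlap, and both lay above the P1 samples with a peak. The log2 difference was 2.39 ± 0.14 from P1 to P8 (SE; adjusted p = 2.36e-14), with 10 of the P1 samples at the floor, and 0.98 ± 0.14 from P8 to P15 (adjusted p = 8.37e-05).

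The next 3 regions of the list had a peak in some but not all P8 hypothalami. The region chr8:42131654-42132130 had a peak in 0 of 12 samples on P1, in 7 on P8, where the highest was 38.3 scaled fragments, and in all 12 on P15, at 47.7 to 86.6 (median = 63.1), above every P8 sample with a peak. From P8 to P15 the log2 difference was 2.25 ± 0.23 (adjusted p = 3.76e-08), with 5 of the P8 samples at the floor. In chr19:28987279-28988421, 0, 11, and 12 samples had a peak, the medians on P8 and P15 were 29.3 and 59.6 scaled fragments, and the log2 difference from P8 to P15 was 1.11 ± 0.18 (adjusted p = 0.000472). In chr9:12450706-12451125, 2, 10, and 12 samples had a peak, with medians of 39.0 and 67.0 scaled fragments on P8 and P15, and the log2 difference from P1 to P15 was 3.11 ± 0.30 (adjusted p = 1.62e-09), with 10 of the P1 samples at the floor, and 1.35 with samples without a peak treated as missing. PF 15 WBC had a peak in chr2:156761538-156763057, chr19:28987279-28988421, and chr9:12450706-12451125, and in neither of the others.

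Among the regions that did not pass the test between P1 and P15, 456 had a higher estimate on P15 and 59 a lower one. The lowest, in chr2:52375165-52376254, which was singled out after its value was seen, was a log2 difference of -0.57 (adjusted p = 0.113), with a peak in 11 of 12 P1, 12 of 12 P8, and 9 of 12 P15 hypothalami.

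On P22, where each of the 12 hypothalami had a peak in every region by the choice, the mean height of the hypothalamus-only regions ran from 11.4 to 111 scaled fragments, with a median of 22.1 and quartiles of 18.1 and 26.9. The shared regions had a median of 25.8 and quartiles of 20.8 and 32.7. The coefficient of variation over the 12 samples had a median of 21.4% and ran from 8.00 to 45.6%. After the 3 of the 5 highest regions that are described above, chr2:161576073-161576524, chr9:12450706-12451125, and chr2:156761538-156763057, came chr19:26950325-26950764, at 59.7 to 132.5 scaled fragments (median = 80.4), and chr15:5085218-5085905, at 80.1 to 117 (median = 89.3). The first of this pair had a peak in 1 of 12 P1, 6 of 12 P8, and 7 of 12 P15 hypothalami, and the samples with a peak reached 64.6 scaled fragments on P1 and 78.1 on P8. The other had a peak in 4, 12, and 12 samples.

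Regions that were higher on P22 had more often had a peak earlier. In the 347 regions with the lowest P22 height, a peak was present in 30.5% of cases on P1, 63.8% on P8, and 78.0% on P15, and in the 347 with the highest height, in 48.8, 81.9, and 86.3%. Shared regions of the same height classes had a peak in 97.1% and 99.3% of cases on P1 in the lowest and the highest class, so that regions of like height on P22 differed in how often they had a peak at birth. The hypothalamus-only regions were 420 to 3108 bp long (median = 862 bp), against a median of 1178 bp in the shared regions and 617 bp in all regions. The shortest 340 had a peak in 33.9% of cases on P1, 68.9% on P8, and 76.5% on P15. With rising length the next 353 had one in 42.0, 76.8, and 82.9%, the following 347 in 45.0, 77.3, and 84.4%, and the longest 347 in 37.5, 75.3, and 85.2%, so that only the P15 share rose over all 4 classes.

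Regions near the threshold of the choice had values on both sides of those inside it. Just outside it, 1278 regions with a peak in 11 of the 12 P22 hypothalami and in no WBC sample had a peak in 29.5% of cases on P1, 59.3% on P8, and 69.4% on P15. Another 577 regions with a peak in all 12 P22 hypothalami and in 1 of the 11 WBC samples had a peak in 57.9, 83.7, and 86.1%. Among regions with a peak in all 12 P22 hypothalami, the share on P1 was 78.0% with 5 WBC samples, 94.2% with 10, and 98.7% with 11. The P8 shares over the same steps were 91.0, 96.6, and 99.2%, and the P15 shares were 89.0, 92.8, and 97.6%, so that P15 was below P8 in these. P15 was above P8 in the hypothalamus-only regions, but also in both sets just outside the threshold and with 2 WBC samples (87.75 against 86.7%).

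The regions in which PF 15 WBC had a peak appeared earlier than those in which it had none. Over the 1084 with its peak, 45.3% had a peak on P1, 80.2% on P8, and 84.3% on P15, and over the 303 without it, 19.2, 54.8, and 74.9%. All 57 regions with a peak in the 36 earlier hypothalami were among the 1084. The order of the ages was the same in both sets. The 1084 were also higher on P22, with a median of 22.7 scaled fragments against 19.7, and the part of height in this difference was not tested.

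Neighbouring hypothalamus-only regions were usually far apart, at a median distance of 999.5 kb. Only 22 of the 1387 lay within 10 kb of another, as 11 pairs. The 3 pairs with the shortest span were chr1:166891698-166895805, chr2:161590727-161596545, and chr17:22803873-22809846. The pair on chromosome 1 had a peak in 2 and 6 of 12 P1 hypothalami and in 11 and 12 on P15, and both regions rose from P1 to P15, by log2 differences of 1.40 ± 0.18 (adjusted p = 2.60e-06) and 1.25 ± 0.16 (adjusted p = 1.34e-06). The pair on chromosome 2, near chr2:161576073-161576524, had a peak in 0 and 2 P1 samples, 1 and 10 P8 samples, and 12 and 12 P15 samples. The pair on chromosome 17 had a peak in 8 and 11 samples on P1 and in 10 and 9 on P15, with log2 differences of 0.70 ± 0.27 and -0.27 ± 0.22 that missed the threshold (adjusted p = 0.114 and 0.484).

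Hypothalamus-only regions were found on each of chromosomes 1 to 20, from 29 on chromosome 20 to 142 on chromosome 1. They made up 2.74% of the regions with a peak in all 12 P22 hypothalami on chromosome 20 and 5.00% on chromosome 19, the lowest and the highest share. The share with a peak on P1 ran from 27.0% on chromosome 20 to 48.7% on chromosome 10, and on every chromosome it was higher on P8 than on P1.

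Height was then compared between prenatal groups, first on P22, to ask whether prenatal alcohol or pair-feeding changed regions that the hypothalamus holds apart from blood. Over the hypothalamus-only regions, the median of the mean heights on P22 was 21.3 scaled fragments in C, 23.1 in PF, and 21.8 in PAE. The median height in the single samples was 21.6, 20.1, 21.1, and 22.1 in C, 21.7, 22.4, 24.9, and 22.7 in PF, and 20.8, 23.6, 22.4, and 19.7 in PAE. The PF samples were thus high as a group, but their lowest lay below the highest C sample, and the PAE samples spread over the range of C and most of PF. The mean of PF was the highest of the 3 in 712 regions, that of PAE in 391, and that of C in 284, a description that gets no test. No such count is given for shared or all regions, so this order cannot be read as particular to the hypothalamus-only regions.

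No hypothalamus-only region passed the test between prenatal groups on P22. All 1387 entered the limma fit of 48 hypothalami and 405208 regions, with extraction round and breeding cohort as covariates. In PAE vs. C, 0 regions were called, where 0.109% of all regions were called higher and 0.0518% lower in PAE (0.160% in either direction), with 4 (0.288%) at an unadjusted p under 0.05 against 6.77% of all regions and a smallest adjusted p of 0.631. For PAE against PF, 0 regions were called, where 0.0992% of all were called higher and 0.185% lower in PAE (0.284% in either direction), with 11 (0.793%) at an unadjusted p under 0.05 against 6.96% and a smallest adjusted p of 0.198. For PF against C, 0 regions were called, where 0.194% of all were called higher and 0.0925% lower in PF (0.287% in either direction), with 23 (1.66%) at an unadjusted p under 0.05 against 7.45% and a smallest adjusted p of 0.195. By the choice, every P22 hypothalamus had a peak in these regions, which is not so for all regions. The cause of their low shares of small p-values was not tested. Among the shared regions, chosen with the same demand, 2.78% had an unadjusted p under 0.05 between PAE and C, 2.93% between PAE and PF, and 3.31% between PF and C.

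The median log2 difference of the regions was 0.05 between PAE and C, -0.08 between PAE and PF, and 0.12 between PF and C, and 0.00 in each for the shared regions. With each replicate number left out in turn, and the regions found again where that was a P22 sample, the first ran from -0.02 (without 14) to 0.10 (without 13), the second from -0.12 to -0.04, and the third from 0.09 to 0.17. The 3 comparisons share their samples. The median standard error of a hypothalamus-only region was 0.36, 0.34, and 0.34, so that differences of the size of these medians were not detectable in single regions, and a missed threshold does not show that the groups were alike. This spread was estimated over all ages, including the samples without a peak. The median standard error of a shared region was 0.26, 0.24, and 0.24. In a fit of the 12 P22 hypothalami alone, chosen after seeing the data, 0 hypothalamus-only regions were called in each comparison. An unadjusted p under 0.05 was found in 9, 23, and 37 of them, and in 11072, 11203, and 12346 of all 220942 regions. Of all regions, that fit called 0 in PAE vs. C, 5 higher and 0 lower in PAE vs. PF, and 1 higher and 3 lower in PF vs. C.

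The 3 regions with the smallest p in PAE vs. C on P22 missed the threshold. In chr12:50086773-50087786, the height was 20.4, 25.1, 22.3, and 23.2 scaled fragments in C, 18.4, 30.9, 36.2, and 24.9 in PF, and 18.8, 19.6, 13.4, and 20.7 in PAE, and 3 of the 4 PAE samples were below all of C. The log2 difference was -0.64 ± 0.28 (adjusted p = 0.631). In chr10:95169716-95171568, the height was 15.9, 23.1, 20.0, and 14.4 in C, 15.2, 20.2, 18.1, and 21.6 in PF, and 17.7, 15.7, 8.96, and 14.8 in PAE, with PAE and C overlapping and a log2 difference of -0.61 ± 0.28 (adjusted p = 0.683). In chr19:27812695-27814592, the height was 15.9, 19.1, 27.8, and 31.0 in C, 30.3, 18.1, 35.1, and 49.7 in PF, and 35.4, 29.4, 39.2, and 34.5 in PAE, with the highest C sample above the lowest PAE sample, and the log2 difference was 0.73 ± 0.34 (adjusted p = 0.689). These differences depended on the model. Without extraction round and breeding cohort they were -0.34, -0.38, and 0.61, and with fold enrichment in place of height -0.42, -0.46, and 0.34. Without replicate number 15 the difference in chr10:95169716-95171568 was -0.39. The region of chromosome 19 had a peak in 0 of 12 P1, 2 of 12 P8, and 11 of 12 P15 hypothalami.

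Before P22, the median height of the hypothalamus-only regions was at the floor in every P1 sample. On P8, it was 11.6, 13.5, 11.8, and 13.8 scaled fragments in C, 13.8, 13.1, 13.3, and 13.5 in PF, and 14.5, 13.8, 11.4, and 13.2 in PAE, with the groups overlapping. On P15, it was 16.1, 17.2, 17.3, and 15.3 in C, 17.4, 18.2, 18.6, and 17.9 in PF, and 17.5, 17.2, 16.5, and 16.9 in PAE, so that all 4 PF samples were above all of C while PAE overlapped both. These medians include regions at the floor, and over the regions with a peak in a sample the P15 medians of C, 17.2 to 19.2, and of PF, 18.4 to 20.7, overlapped. No test was made within P15 alone, and the C samples of that age had 20325616 ± 642367 fragments (SD, n = 4) against 18430650 ± 2719160 in PF.

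Over the 4 ages together, no hypothalamus-only region passed the test between prenatal groups. The limma fit called 0 regions in each of the 3 comparisons, and 0% of the 405208 regions tested. At an unadjusted p under 0.05 there were 66 hypothalamus-only regions (4.76%) for PAE vs. C against 4.97% of all regions. The counts were 49 (3.53%) against 4.87% between PAE and PF, and 85 (6.13%) against 5.46% between PF and C. The smallest adjusted p was 0.960, 0.973, and 0.899, and the median log2 differences were 0.04, -0.04, and 0.07.

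The 3 regions with the smallest p in PAE vs. C over the ages had more C hypothalami without a peak than PF or PAE. In each the fitted log2 difference between PAE and PF was small, at -0.07, 0.09, and -0.08, and that between PF and C was 0.93, 0.75, and 0.74. In chr18:76907787-76908405, a peak was present in 10 of 16 C, 16 of 16 PF, and 16 of 16 PAE hypothalami, with medians of 24.0, 30.2, and 29.0 scaled fragments and ranges of 6.74 to 39.2, 21.3 to 47.9, and 22.1 to 42.5. The 6 C samples without a peak were of P1, P8, and P15, and the log2 difference between PAE and C was 0.86 ± 0.21 (adjusted p = 0.960). In chr7:61902998-61903533, a peak was present in 7 of 16 C, 12 of 16 PF, and 13 of 16 PAE hypothalami, with medians of 6.74, 27.6, and 25.3, and on P15 in 0 of 4 C samples and in all 4 of PF and of PAE. The log2 difference was 0.84 ± 0.21 (adjusted p = 0.960). In chr9:12227029-12227724, a peak was present in 12 of 16 C, 14 of 16 PF, and 15 of 16 PAE hypothalami, with medians of 26.9, 43.7, and 34.6 and a log2 difference of 0.65 ± 0.23 (adjusted p = 0.960). In all 3 regions the groups overlapped over the 16 samples. With fold enrichment in place of height the differences between PAE and C were 0.43, 0.63, and 0.77, and with 0.5 of the floor 1.25, 1.23, and 0.85.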

How the data were processed

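The authors aligned paired-end meDIP-seq reads to Rn6 with BWA, filtered them with SAMtools, and called peaks in each of 60 samples on its own at a q-value of 0.05, using MACS2 2.1.0.20140616 and no control sample. The signal deposited for a summit is the number of fragments covering it, not scaled to depth. For fold enrichment, the authors deposited the ratio of that height to a local background estimated by MACS2. The deposited -log10 q-value comes from the same run.

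Here, summits of a peak were joined and peaks of all samples merged at 1 bp overlap. Each sample entered a region with its highest summit, scaled by a median-ratio factor. Heights were raised to a floor of 6.74, found by taking the smallest scaled height in every sample and then the median of these, before taking log2. A region was tested if at least 3 samples of the fit had a peak, using limma 3.58.1 (R 4.3.3) with moderated variances that follow a trend in height, with Benjamini-Hochberg adjustment over all regions tested, and called at an FDR under 0.05. On simulated data, with 50 regions per size of change, the fit of ages recovered 0.36, 0.74, and 0.98 of the log2 changes of 0.6, 1, and 2, and the fit of groups on P22 recovered 0.08, 0.28, and 0.7. Python 3.11.15, numpy 2.4.6, and pandas 2.3.3 gave the shares and counts. Each p-value reflects a spread between animals, but not that of the 4 animals of a group and age alone. The main fit of ages took it over the 36 earlier hypothalami, and the main fits of prenatal groups over all 48. Groups come from the sample labels, and rounds, cohorts, and the age P1, which the labels of the youngest samples write as P0, from the study.

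Regions are named by position, because the reference at hand is of another genome build than Rn6. Those named are the 5 with a peak in all 36 earlier hypothalami and the highest mean height, the 5 with the fewest earlier peaks, the 5 with the largest called difference between P15 and P1 in each direction, of which the falling side had 0, the 3 with the smallest p in each of PAE vs. C on P22 and over ages, the 5 highest on P22, those overlapping a stretch with a gene symbol in the study, of which there were 0 and which are few beside the regions merged, and the 3 tightest runs within 10 kb. The regions, sets, and rules were chosen with earlier results of these data known. On chromosome X, not analysed further, 8 regions met the rule. Alternatives covered the peak threshold, the overlap, the number of peaks, the floor, the scaling, the filter, the covariates, the replicate block, litters as a random block (with statmod 1.5.0), and leaving out samples.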

Additional observations from a re-analysis of the deposited data

Results flagged for a closer look

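One sample of a group of 4 lay apart from the others in the share of hypothalamus-only regions with a peak. Among the P1 PAE hypothalami, the sample with replicate number 4 had a peak in 37.8% of the regions, while the other 3 lay between 40.7 and 40.9%. This value is within the range of the 12 P1 hypothalami, and its distance reflects how close the other 3 were. It was the only such value in 30 groups of 4 samples looked at for shares, median heights, and the P22 heights of the 3 regions with the smallest p in PAE vs. C, and chance puts about 1 in 20 groups on this list.

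The WBC sample PF 15, which enters none of the comparisons, had a peak in 78.2% of the hypothalamus-only regions, where the other 11 WBC samples had none by the choice of the regions.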

How the results depend on the processing

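The lists hold peaks above a threshold only, so a region without a peak has no depth of its own, and a lower signal and an absent one cannot be told apart. With 4 samples per group and age, small differences between prenatal groups were not detectable in single regions.

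The order of the ages in the share of regions with a peak was the same under all 5 other ways of finding the regions. Counting PF 15 as a WBC sample gave 303 regions, with shares of 19.2% on P1, 54.8% on P8, and 74.9% on P15, and 0 regions with a peak in all 36 earlier hypothalami. Requiring peaks to cover at least 50% of a region gave 858 regions, 11 of them in all 36. Only summits with a q-value under 0.001 gave 36 regions in all 36. The same number of peaks from every sample gave a P8 share of 65.4% and 1 region with no earlier peak. Leaving out the samples of 1 replicate number at a time, with the regions found again, gave 1387 to 2170 regions, the most without number 13, shares of 37.9 to 41.3% on P1, 70.8 to 76.1% on P8, and 78.6 to 83.0% on P15, 58 to 76 regions in all earlier hypothalami left, and 0 in none. Fewer samples to satisfy loosen the rule.

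Regions that rose with age numbered 5 (P8 vs. P1), 76 (P15 vs. P8), and 132 (P15 vs. P1) with all 48 hypothalami and breeding cohort as a term, at median log2 differences of 0.47, 0.28, and 0.78 against 0.45, 0.29, and 0.78 without either. With that term, the comparisons with P1 draw on the P22 hypothalami used in the choice. Without the cohort term, chosen after seeing the data, the 48 hypothalami gave 278, 150, and 926. P15 vs. P8 gave 42 within cohort Dev-4 alone, which has fewer samples, at a median of 0.28, 91 with 0.5 of the floor, 88 with fold enrichment, and 213 of 2025 regions tested with equal numbers of peaks, against 0.0524, 0.190, 0.227, and 0.414% of all regions. P8 vs. P1 gave 112 of 1024 with only summits under a q-value of 0.001, against 0.187% of all. Regions that fell appeared with scaling by fragments, 1 in P8 vs. P1, 56 in P15 vs. P8, and 68 in P15 vs. P1, and with fold enrichment, 8 in P15 vs. P1 (0.577%), where 4.90% of all regions fell. Under scaling by fragments the median log2 difference of P15 vs. P8 turned to -0.0369. The cause was not tested except where stated. Leaving out replicate numbers gave 111 to 184 rising regions in P8 vs. P1, against 462 to 937 of all (931 with none left out). P15 vs. P8 gave 83 to 163, against 477 to 1778 (1137). P15 vs. P1 gave 720 to 868, against 7227 to 12481 (12253), with 0 to 1 falling and 0 in the others. P8 vs. P1 gave 121 without 1, 112 without 4, 119 without 5, 116 without 6, and 111 without 8. P15 vs. P8 gave 83 without 7.

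The litter number as a random block, chosen after seeing the data, gave 185, 176, and 859 rising regions, at a correlation of 0.276 from 3 litter numbers that recur among the 36 samples.

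In the 6 comparisons of prenatal groups, 0 regions were called with each replicate number left out (0 to 0). Under the alternatives run for these comparisons the count was also 0, with 1 exception. PF vs. C on P22 gave 1 region when regions with a peak in at least 1 sample were tested. In that fit 5221 of all 569050 regions were called higher and 3165 lower in PF. The peak threshold, the overlap, and the number of peaks were not varied in these comparisons, nor were samples without a peak treated as missing. With the replicate block, 0 regions were called in each. The regions with an unadjusted p under 0.05 numbered 67 over ages and 5 on P22 between PAE and C, 47 and 10 between PAE and PF, and 87 and 23 between PF and C. Among all 405208 regions these counts were 20731 and 30827, 20588 and 31696, and 23120 and 31710. On P22 the block fit called 1274, 859, and 1020 of all regions higher in PAE vs. C, PAE vs. PF, and PF vs. C. It called 320, 925, and 361 lower. Samples of the same number shared little, with a mean correlation of their deviations of 0.00271 over 48 pairs, none above 0.1, so that the numbers do not pair them.

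Leaving out replicate numbers moved the regions with an unadjusted p under 0.05. On P22 they ran from 3 to 17 between PAE and C (7 without 12, 15 without 13, 8 without 14, 14 without 15, 17 without 16), from 7 (without 15) to 19 (without 14) between PAE and PF, and from 17 to 32 between PF and C. Of all 396491 to 399446 regions tested, 25184 to 32922, 25789 to 34032, and 27723 to 32703 had such a p. Over ages the hypothalamus-only counts ran from 40 (without 5) to 107 (without 13), from 39 to 79 (without 16), and from 71 to 127. Those of all regions ran from 18769 to 20166, from 18445 to 19834, and from 19895 to 22317. Without 13 to 16 the regions were found again and were more.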
